A study of Bos taurus with 43 samples.

Results

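Histone genes were followed in the biceps brachii muscle of 43 male cattle, each animal measured on its own 1-colour bovine oligonucleotide array. Of the 21475 gene probes on the array, 22 were chosen by the wording of the array's annotation, and these 22 make up the set described here. Their gene name begins with HIST or H2AF, or their description contains a phrase such as histone H2A, histone H4 or H2A histone family, and the probe for H2AJ was added by its identifier. Enzymes that modify histones were left out by the same wording. The set holds 6 replacement H2A variants (H2AX, H2AZ1, H2AZ2, H2AJ, MACROH2A1 and MACROH2A2), 7 canonical-type H2A genes (H2AC10, H2AC12, H2AC15, H2AC21, LOC524236, LOC618147 and LOC521825), and 2 canonical-type H2B genes (H2BC3 and LOC523458). It also holds 2 H4 genes (H4 and H4C1), 1 canonical-type linker gene (H1-12, named histone H1.4 in the array design), and 4 germ-line histones (H2BL1, H1-7, H1-9 and LOC528006). The rule does not take in every histone gene of the array. A further 36 histone probes were not matched by the rule, among them H1-10, H3-3A and H3-3B, and they are given as a second set. They name their histone in another form, often by its human counterpart. Some of them nevertheless have a design symbol that begins with HIST, such as HIST1H1B for H1-5 and HIST2H2BE for H2BC21.

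The animals fell into 4 groups. The control group K held 5 untreated Charolais by Limousine cross bulls aged 18 months, and the control group C held 13 untreated Holstein animals aged 13 to 18 months. The suspected group held 4 commercial animals labelled as suspected of corticosteroid treatment, which the study classed as positive by thymus histology and urine analysis. The unknown group held 21 commercial animals whose treatment history was not known. Suspected and unknown animals were 12 to 24 months old and mostly Charolais, Limousine or their crosses, so that breed and age differ between groups together with any treatment, and no group was treated by experiment. Values below are normalized log2 signals, with the group mean difference ± SE and the adjusted p of limma. A probe was called when its adjusted p was under 0.05 and its change at least 2-fold.

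The arrays lay on 19 slides scanned on 13 days. The K arrays were read on scanners 1 and 2 and all other arrays on scanner 3, and the K arrays shared no slide and no scan day with any other group, so that batch and group cannot be told apart in a comparison with K. Suspected animals lay on slides 9 and 10, which also held 4 unknown animals (U50, U81, U78 and U79). The share of spots well above background was 74.95 to 89.4% in the suspected group, 62.9 to 73.7% in K and 62.3 to 73.2% in Holsteins. In the unknown group it ran from 40.2% in animal U79 to 97.3% in U50, and both animals stood apart from the rest of their group.

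Histones are the proteins that DNA is wound on. H2A, H2B, H3 and H4 form the nucleosome core, and H1 binds the linker DNA between nucleosomes. Canonical histone genes are transcribed mostly during DNA replication, and their messages end in a stem-loop bound by SLBP rather than in a poly(A) tail. Replacement variants are made through the whole cell cycle from polyadenylated messages and are the main supply in cells that have stopped dividing, such as muscle fibres. Germ-line histones are made in maturing sperm cells, where most histones are then exchanged for transition proteins and protamines. Array targets are labelled from poly(A) tails, so a canonical histone probe reports the part of that message that carries one.

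All 43 arrays measured 6 of the 22 probes well above background, and each of the 22 was measured so on at least 1 array. The filter on dim probes kept 16 of the 22 for testing. The 6 removed were H2AC10, H2AC15, H2BC3, LOC523458, H4C1 and LOC528006, all of them dim in most animals. The replacement variants were all kept, and the dim probes were canonical-type or germ-line genes.

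**Figure D1:**
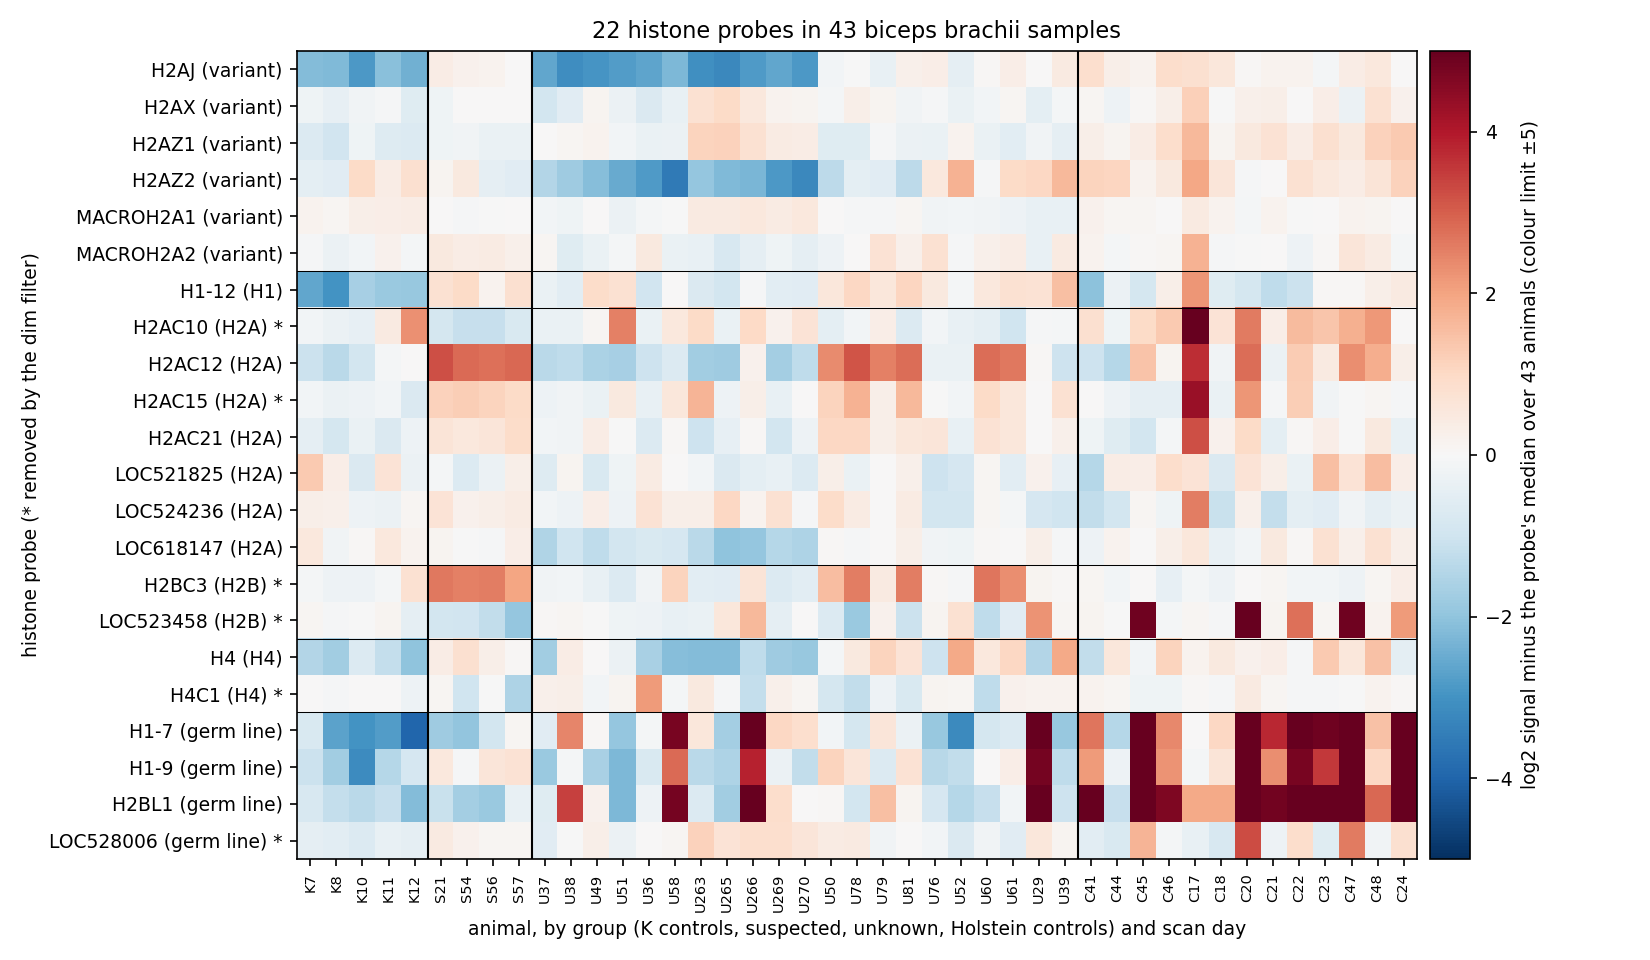
Normalized log2 signal of each of the 22 histone probes (rows, asterisk for the 6 removed by the dim filter) in each of the 43 animals (columns, by group and scan day), shown as the difference from the median of that probe over all animals, with the colour limited at 5 in each direction. The germ-line rows are brightest in a subset of the 13 Holstein animals, and the H2AJ row splits the 21 unknown animals by scan day.

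The suspected and K groups differed in 6 of the 16 tested histone probes, all 6 higher in suspected animals. They were H2AJ, H2AC12, H1-12, H1-9, H4 and H2AC21, and no histone probe was called lower. Over all 16354 tested probes, 14.4% were called higher and 13.8% lower in this comparison. The median log2 change of the 16 probes was 0.41, against -0.03 over all tested probes. Under 75th percentile scaling these medians were 0.84 and 0.11. Under normexp background correction, where all 22 histone probes were tested, they were 0.24 and -0.02.

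H2AJ, a replacement H2A known to accumulate in senescent cells, was at 15.20, 15.02, 14.98 and 14.82 in suspected animals S21, S54, S56 and S57. In K animals K7, K8, K10, K11 and K12 it was at 12.64, 12.63, 11.94, 12.74 and 12.41. The lowest suspected animal stood above the highest K animal by a wide margin. The difference was 2.53 ± 0.18, or 5.78-fold, with limma adjusted p = 5.37e-06. Over the 19 alternative settings it ran from 2.40 to 2.86, with the call kept in all 19.

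H1-12, a linker histone that compacts chromatin, was at 8.15, 8.32, 7.57 and 8.20 in suspected animals S21, S54, S56 and S57. In K7, K8, K10, K11 and K12 it was at 4.77, 4.39, 5.71, 5.51 and 5.49, with 4 of these 5 arrays well above background. The groups did not overlap, and the range inside each was smaller than the gap between them. The difference was 2.89 ± 0.29, or 7.40-fold, with limma adjusted p = 2.68e-05. Over the alternatives it ran from 1.74 (normexp) to 3.28.

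H2AC12, a canonical H2A gene, was at 6.93, 6.53, 6.43 and 6.55 in the suspected animals, in the same order. In K it was at 2.62, 2.34, 2.77, 3.59 and 3.69, not well above background on any of the 5 arrays. The groups did not overlap. Where no array of a group measured a probe well above background, a fold is given as a lower bound. It sets the mean of the brighter group against the lowest measurable signal of the dimmer arrays, or the probe's own signal where higher. Where arrays of the brighter group were themselves below background, the bound is not a strict minimum. For H2AC12 that bound was at least 9.0-fold higher in suspected animals, with limma adjusted p = 7.54e-06. The bound holds for this background treatment and scaling; over the alternatives the fitted log2 change ran from 1.09 (pairwise cyclic loess) to 4.63 and was called in all 19.

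The other canonical-type genes called were H4 and H2AC21. H4, a core histone, was at 4.43, 4.87, 4.34 and 4.12 in S21, S54, S56 and S57, and at 2.59, 2.34, 3.38, 2.88 and 2.04 in the K animals, below background in all 5. It was at least 2.29-fold higher in suspected animals, with limma adjusted p = 0.00034. H2AC21 was at 6.22, 6.12, 6.17 and 6.48 in the suspected animals and at 5.14, 4.70, 5.23, 4.86 and 5.31 in K, again without overlap, a difference of 1.198 ± 0.17 (2.29-fold) with limma adjusted p = 0.000219. The H4 and H2AC21 calls were lost under normexp background correction, where the log2 changes were 0.29 and 0.41, and under cyclic loess run on all pairs of arrays, where they were 0.49 and 0.45.

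LOC524236, LOC618147 and LOC521825, the remaining tested canonical-type H2A genes, did not pass. Their log2 differences were 0.37 ± 0.18, -0.13 ± 0.18 and -0.46 ± 0.38. Among the dim probes that were not tested, H2BC3, an H2B gene, was at 5.32, 5.17, 5.24 and 4.65 in S21, S54, S56 and S57, well above background on all 4 arrays. In K it lay between 2.42 and 3.43 and was above background on 0 of 5 arrays, which puts suspected animals at least 3.36-fold higher. H2AC15 was at 3.65 to 3.93 in suspected animals, above background on 3 of 4 arrays, and on 0 of 5 in K, at least 1.59-fold higher. H2AC10, LOC523458 and H4C1 were above background on 0, 0 and 1 of the 4 suspected arrays.

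**Figure D2:**
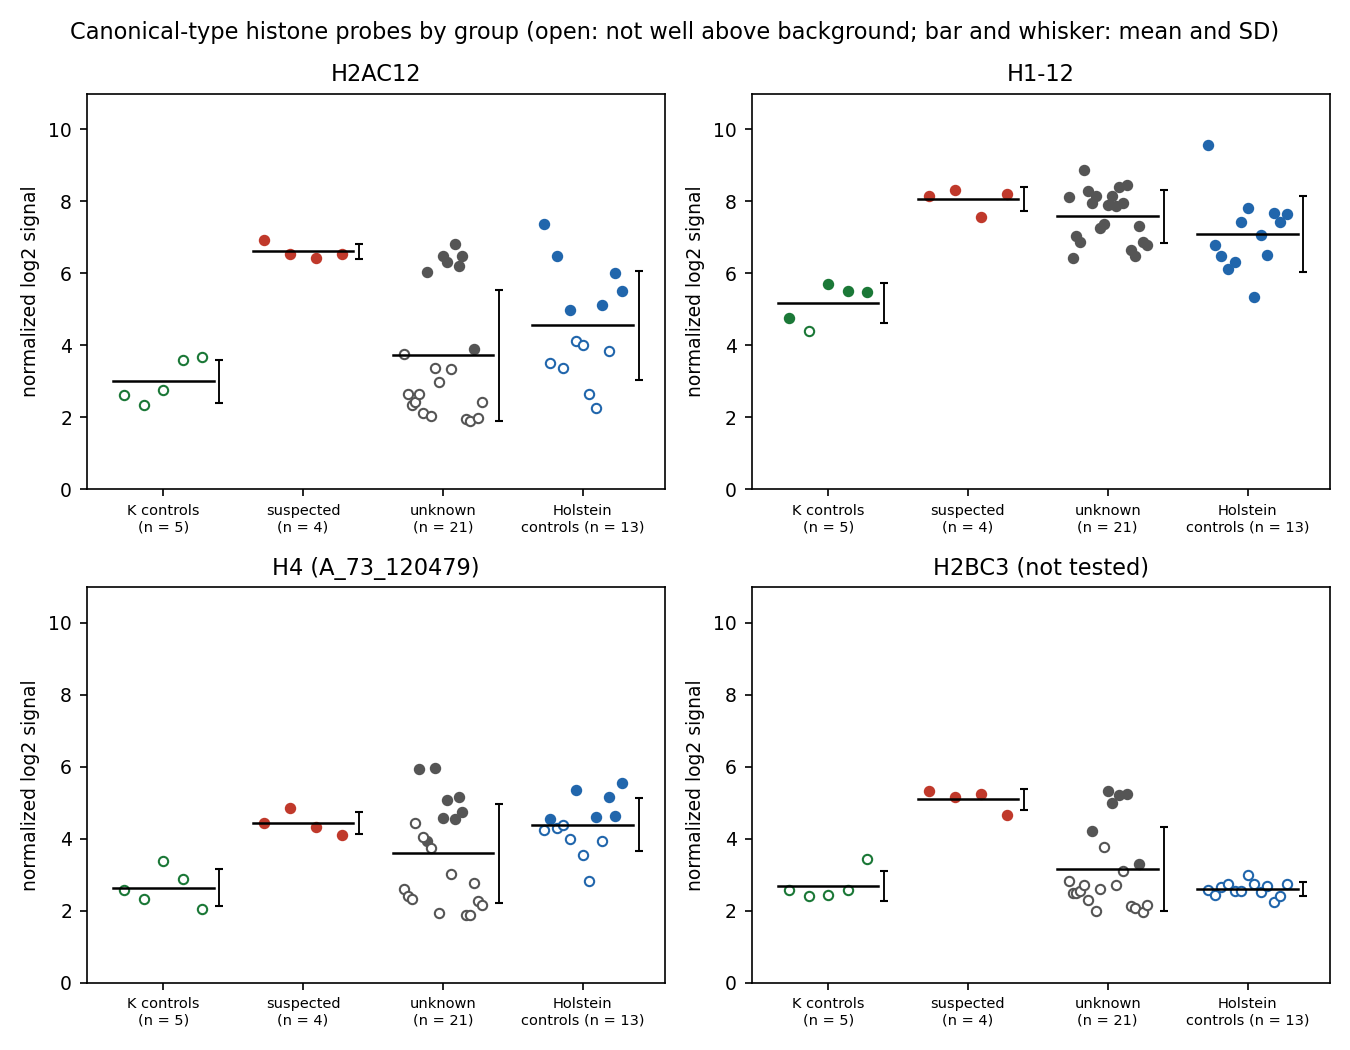
Normalized log2 signal (y axis) of canonical-type histone probes in each animal (open points not well above background) of the 4 groups (x axis), with bars for the group mean and whiskers for the SD. For H2AC12 the 4 suspected animals sit between 6.43 and 6.93, above all 5 K animals, while a few unknown and Holstein animals reach the same range.

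Among replacement variants, H2AJ alone was called between suspected and K animals. H2AZ1, the H2A.Z of nucleosomes beside promoters, ran from 7.89 to 8.05 (median 7.94) in suspected animals and from 7.27 to 7.98 (median 7.53) in K. These ranges overlapped, and the difference of 0.38 ± 0.16 had limma adjusted p = 0.065. Its close relative H2AZ2 ran from 4.64 to 5.66 against 4.64 to 6.14, a difference of -0.31 ± 0.36 (p = 0.499, limma).

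H2AX, the variant phosphorylated beside DNA breaks, was at 9.21, 9.43, 9.43 and 9.41 in S21, S54, S56 and S57 and at 8.80 to 9.35 in K. The ranges overlapped, and the difference was 0.26 ± 0.15 with limma adjusted p = 0.168. MACROH2A1 and MACROH2A2 carry a large extra domain and are known from silent chromatin. MACROH2A1 was at 11.63 to 11.70 in suspected animals and 11.78 to 12.05 in K, ranges that did not overlap, yet the difference of -0.27 ± 0.12 gave limma adjusted p = 0.0895. MACROH2A2 was at 6.73 to 6.96 against 6.21 to 6.72, a difference of 0.44 ± 0.14 with limma adjusted p = 0.025, under the 2-fold limit. Pairwise cyclic loess moved MACROH2A2 to 1.90 and H2AZ2 to -2.46, both called under that setting.

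Replacement histones outside the naming rule were described in the same way. H1-10, a linker histone with a poly(A) message, was at 16.36 to 16.65 in suspected animals and at 14.90 to 16.18 in K, a difference of 0.91 ± 0.23 with limma adjusted p = 0.0077 and not called. The probe was saturated on 1 of the 4 suspected arrays, so its level there is a lower bound. H3-3A and H3-3B both encode H3.3, the replication-independent H3, and differed by -0.39 ± 0.16 (p = 0.061) and -0.09 ± 0.31 (p = 0.822, limma).

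In the unknown group, the level of H2AJ was split by scan day. The 11 unknown animals of scan days 4 and 5 had H2AJ at 11.61 to 12.59, and the 10 of scan days 6 to 9 had it at 14.38 to 15.27. No unknown animal lay between these ranges. The earlier animals overlapped with K, which was scanned on days 1 to 3, and the later ones with the suspected group (day 6, 14.82 to 15.20) and with Holsteins (days 10 to 13, 14.73 to 15.69). The scan day and the animals scanned on it cannot be told apart.

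Among the 16 tested histone probes, H2AZ2 and LOC618147 likewise separated the earlier from the later unknown animals without overlap. With H2AJ, whose values drew attention to this split, that made 3 of 16 probes, and 2 of the 26 tested probes of the second set did so as well. Of all tested probes 11.7% separated these animals in the same way, so the histone probes do not stand apart in this. H2AZ2 was at 1.65 to 3.72 on the earlier days and 3.87 to 6.91 on the later ones, and LOC618147, a canonical-type H2A, was at 10.95 to 12.20 and 12.77 to 13.28. For H2AZ2 only 9 of 21 unknown arrays were well above background, so the size of its separation is not exact. Among the differently worded probes, H2AC20, a canonical H2A gene, went from 10.24 to 11.69 on the earlier days to 12.74 to 13.43 on the later ones. H3-3A ran the other way, at 15.39 to 16.19 on the earlier days and 14.65 to 15.14 on the later ones.

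**Figure D3:**
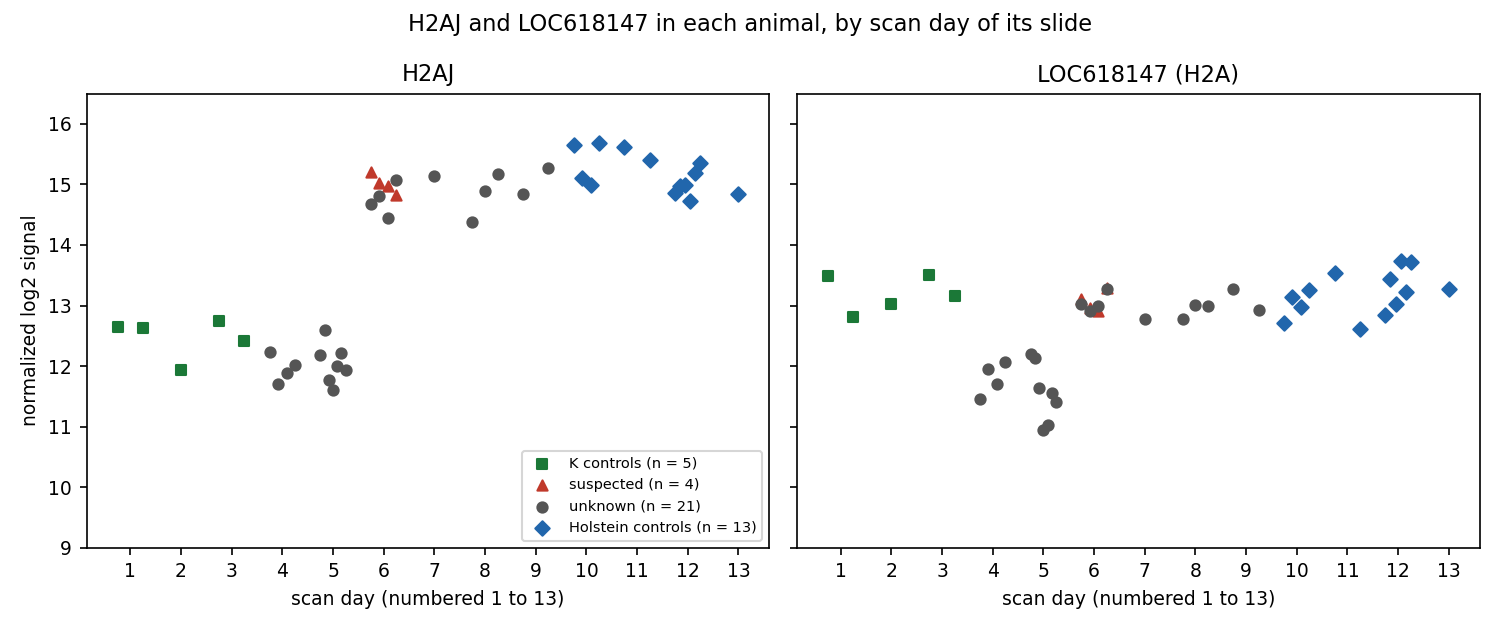
Normalized log2 signal (y axis) of H2AJ and LOC618147 in each animal (points, marked by group) against the scan day of its slide (x axis, days numbered 1 to 13). H2AJ lies between 11.61 and 12.74 on days 1 to 5 and between 14.38 and 15.69 on days 6 to 13, and the unknown group takes both levels. LOC618147 in unknown animals lies at 10.95 to 12.20 on days 4 and 5 and at 12.77 to 13.28 on days 6 to 9.

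Suspected and unknown animals could be compared partly within slides. None of the 16 tested histone probes was called between these groups, where 0% of all tested probes were called higher and 0.0489% lower. At an unadjusted p under 0.05, limma counted 2 of the 16, and 3890 of all 16354 tested probes. The smallest adjusted p was that of H2AC12, which ran from 1.90 to 6.82 (median 2.99) in unknown animals. The difference was 2.89 ± 0.88 with limma adjusted p = 0.111, and the suspected values of 6.43 to 6.93 overlapped with the highest unknown ones, S21 lying above all of them.

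The high unknown values of H2AC12 were at 6.82 in U78, 6.48 in U81, 6.47 in U60, 6.33 in U61, 6.21 in U79 and 6.04 in U50. The other 15 unknown animals lay between 1.90 and 3.90. U78, U79, U81 and U50 are the 4 unknown animals on slides 9 and 10 with the suspected group, and U60 and U61 lay on slide 11. Inside slides 9 and 10 the suspected animals exceeded the unknown ones by 0.23 and 0.21 on the log2 scale, 0.22 in the fit restricted to those slides (p = 0.678, limma). The untested H2BC3 was above background on 6 of 21 unknown arrays, and the suspected animals exceeded the unknown ones by 0.21 on slide 9 and 1.08 on slide 10. Each of these slides held 2 unknown animals, among them U50 on slide 9 and U79 on slide 10. These were the arrays with 97.3% and 40.2% of spots well above background. The within-slide differences were not refitted without them. The unknown animals of slides 9 and 10 ran from 3.11 to 5.24 for H2BC3, so a single array can carry such a difference.

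H2AJ was higher in suspected than in unknown animals by 1.63 ± 0.72 over all arrays (p = 0.183, limma), and by 0.02 on slide 9 and 0.49 on slide 10. Within the shared slides its difference was 0.25 (p = 0.623, limma). The median log2 change of the 16 probes between suspected and unknown animals was 0.45 over all arrays and -0.02 with slide as a fixed block. The medians over all tested probes in the same fits were -0.05 and 0.02.

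The remaining replacement variants lay within the spread of the unknown animals. H2AZ1 ran from 7.60 to 9.35 (median 8.07) in unknown animals, H2AX from 8.50 to 10.36 (median 9.31), MACROH2A1 from 11.32 to 12.21 and MACROH2A2 from 5.69 to 7.24. Suspected minus unknown, the differences were -0.26 ± 0.26 for H2AZ1, 0.01 ± 0.24 for H2AX, -0.02 ± 0.17 for MACROH2A1, 0.42 ± 0.23 for MACROH2A2 and 1.08 ± 0.79 for H2AZ2. H1-10, H3-3A and H3-3B differed by -0.30 ± 0.19, -0.44 ± 0.27 and -0.12 ± 0.21. None of these 8 passed the test.

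Against the same 5 K animals, the Holstein controls had 7 of the 16 tested histone probes called, all 7 higher. They were H2BL1, H1-7, H1-9, H2AJ, H1-12, H4 and H2AZ1. The share called higher over all tested probes was 10.9%, and the share called lower 9.69%. The median log2 change was 1.02 for the 16 probes and 0.01 over all tested probes. Under normexp background correction, where the dim filter removed none of the 22, it was 0.27 over all 22. Breed differs between these groups as well as slide, scan day and scanner. The K animals serve in each of the 3 comparisons with K, so a value particular to them enters every one.

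H2AJ was at 14.73 to 15.69 in Holsteins, above every K animal, a difference of 2.71 ± 0.17 (6.56-fold) with limma adjusted p = 1.93e-09. H1-10 was at 16.74 to 17.24 and 1.34 ± 0.15 higher than in K (limma adjusted p = 1.56e-06), also without overlap.

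H2AZ1 was at 8.33 to 9.83 (median 8.70) in Holsteins, and its lowest animal stood above the highest K animal at 7.98. The difference was 1.31 ± 0.22, or 2.48-fold, with limma adjusted p = 8.93e-05. H2AZ2 ran from 5.13 to 7.11 (median 5.78) and differed by 0.46 ± 0.30 (p = 0.203, limma). H2AX ran from 9.12 to 10.61 (median 9.64), a difference of 0.53 ± 0.19 with limma adjusted p = 0.0281, under 2-fold. MACROH2A1 at 11.61 to 12.14 and MACROH2A2 at 6.24 to 8.21 overlapped with K and differed by -0.14 ± 0.10 and 0.26 ± 0.23. H3-3A and H3-3B differed by -0.36 ± 0.10 (p = 0.00792) and -0.47 ± 0.19 (p = 0.0455, limma), both under 2-fold.

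The linker gene H1-12 ran from 5.34 to 9.58 (median 7.08) in Holsteins. Its lower end overlapped the K range, and the difference of 1.92 ± 0.47 (3.79-fold) had limma adjusted p = 0.00264. H4 ran from 2.83 to 5.54 (median 4.39), above background on 6 of 13 arrays, and was called higher than in K with limma adjusted p = 0.000469. Its bound of 2.21-fold rests in part on Holstein arrays below background, so it is not a strict minimum. Under normexp the log2 change was 0.27 and the call was lost. H2AC12, at 2.25 to 7.37 (median 4.12), and H2AC21, at 4.67 to 8.82 (median 5.56), overlapped with K and did not pass (p = 0.0599 and p = 0.187, limma).

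Holstein animal C17 had the highest value of its group in 11 of the 22 histone probes, and C20 in 6. C17 was at 8.82 for H2AC21, 8.11 for H2AC10, 7.95 for LOC524236, 7.37 for H2AC12 and 7.0 for H2AC15. The linker gene H1-12 reached 9.58 in C17, H2AX 10.61 and MACROH2A2 8.21. Genes of DNA replication and division were also bright in C17. TOP2A, which untangles replicated DNA, was at 10.54, and RRM2, which makes deoxynucleotides, at 9.21. In C20 they were at 9.61 and 7.45. The mitotic cyclin CCNB1 was at 8.19 in C17, below C20 at 9.53 and C47 at 8.85. Leukocyte markers were also brightest in C17, with a list mean of 7.48 against 5.08 to 6.92 in the other Holsteins. The mean log2 signal of the replication and cell cycle list was 8.24 in C17 and 8.32 in C20, and 6.51 to 8.04 in the other Holsteins. The part of either list in the histone values was not tested. Leaving out C17 or C20 kept the number of histone probes called at 7. In a bulk sample, more cells of a type and more RNA per cell cannot be told apart.

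Of the 22 probes, the germ-line histones H2BL1, H1-7 and H1-9 had the widest ranges over the 43 animals. H2BL1, an H2B variant of the testis, was below background in all 5 K animals (2.57, 2.18, 2.01, 2.19 and 1.18) and in all 4 suspected animals (1.5 to 2.98). In Holsteins it ran from 2.21 to 13.20 (median 8.66) and was above background on 12 of 13 arrays. The Holstein range reached far above K but began inside it. The Holstein mean was at least 49.7-fold higher than K, with limma adjusted p = 0.000847. Over the alternatives the fitted log2 change ran from 3.61 (normexp) to 7.05, so that the size of the bound depends on the background treatment.

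H1-7 and H1-9, linker histones of spermatids, followed the same animals. H1-7 was at 0.75 to 3.94 in K, above background on 1 of 5 arrays, and 3.26 to 13.40 (median 8.48) in Holsteins, a fitted difference of 6.53 ± 1.37 with limma adjusted p = 0.000834 (3.38 under normexp). H1-9 was at 3.80 to 6.11 in K and 6.69 to 14.24 (median 9.27) in Holsteins, without overlap, and differed by 4.79 ± 1.10 (27.6-fold, limma adjusted p = 0.00165; 3.51 under normexp). In suspected animals H1-9 was at 7.49, 6.89, 7.57 and 7.67, which was 2.10 ± 0.41 above K (4.28-fold, limma adjusted p = 0.00188). That call was lost with all 43 arrays in a common fit (p = 0.211). H1-7 was at 2.72 to 4.81 in suspected animals and differed from K by 1.49 ± 0.60 (p = 0.0612, limma).

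The same 5 Holstein animals (C20, C47, C45, C24 and C22) were the highest for H2BL1, H1-7 and H1-9, and the same 3 (C44, C17 and C18) were the lowest. In C20 these probes were at 13.20, 13.40 and 14.24, and in C47 at 12.55, 12.15 and 13.34. In C44 they were at 2.21, 3.26 and 6.69. C17, the highest Holstein for H2AC21, H2AC10, H2AC12, H2AC15, LOC524236 and H1-12, was thus among the lowest for these germ-line histones. The dim probe LOC523458, classed here as a canonical-type H2B gene, was at 8.55 in C20, 7.33 in C45 and 7.31 in C47. It was at 5.22 in C22 and 4.57 in C24. In C17 it was below background at 2.55, so it was bright in animals high for the germ-line histones and not in C17. LOC528006, named H2A-Bbd after a short testis H2A, was at 6.19 in C20, 5.55 in C47 and 4.63 in C45.

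Unknown animals also varied. H2BL1 ran from 1.13 to 10.18 (median 3.22), H1-7 from 1.51 to 10.38 (median 4.57) and H1-9 from 4.72 to 11.72 (median 6.27). Animal U29 had 10.18, 10.04 and 11.72 for the 3 probes, U266 had 9.15, 10.38 and 10.79, and U58 had 8.15, 9.46 and 9.77. These 3 animals lay on scan days 9, 5 and 5. H2BL1 and H1-9 did not differ from K past the threshold (p = 0.205 and p = 0.177, limma).

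**Figure D4:**
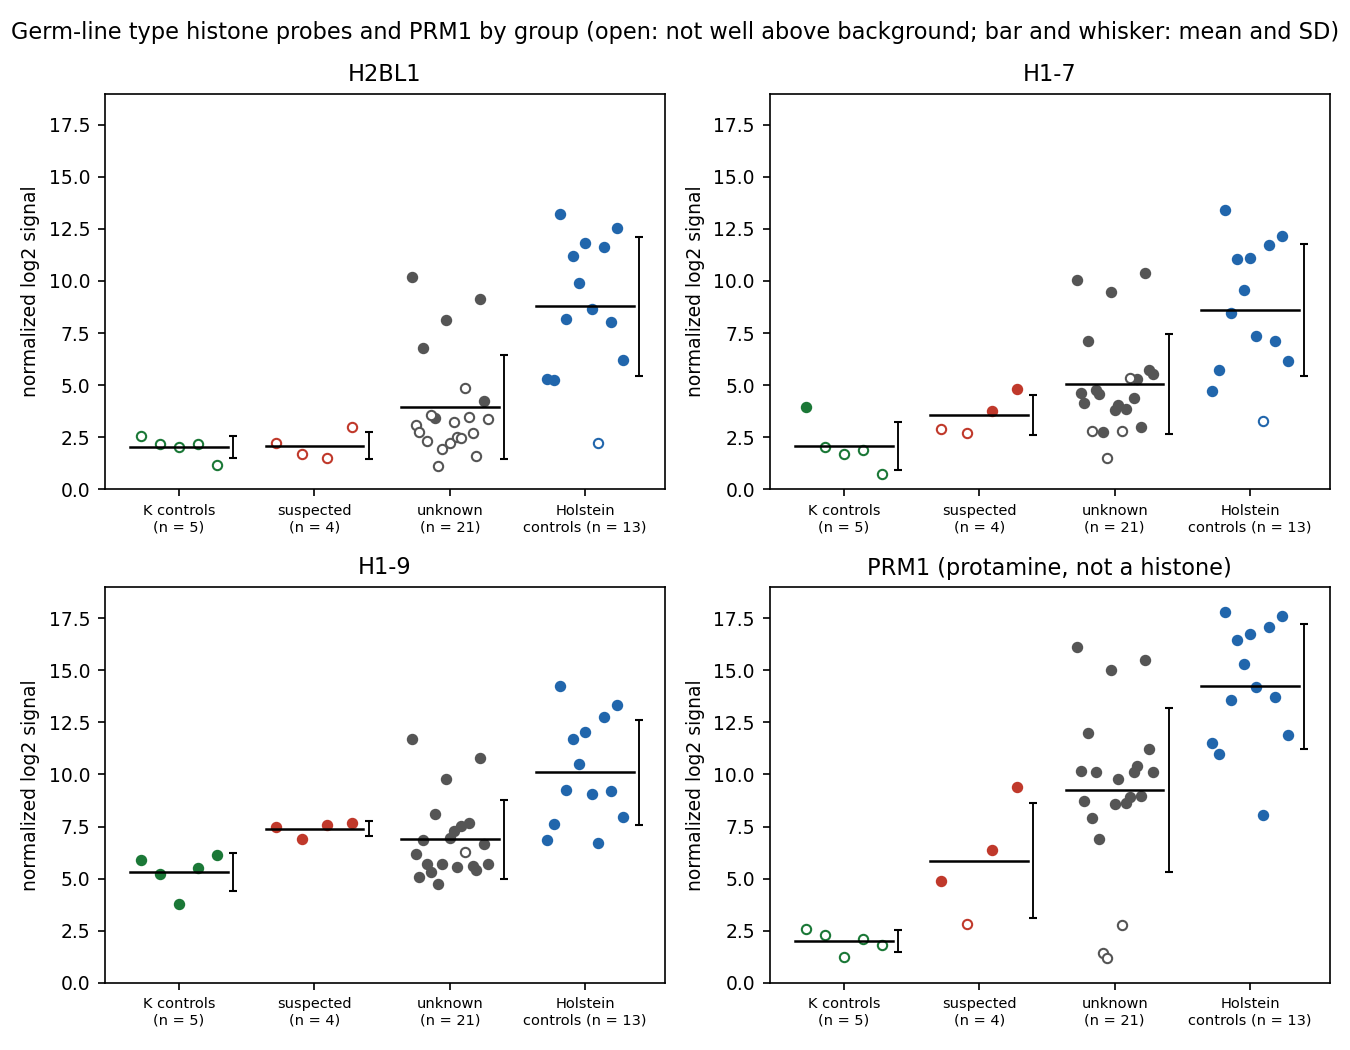
Normalized log2 signal (y axis) of germ-line histone probes and the protamine PRM1 in each animal (open points not well above background) of the 4 groups (x axis), with bars for the group mean and whiskers for the SD. Holstein animals reach 13.20 for H2BL1, 13.40 for H1-7 and 14.24 for H1-9, with their lower ends overlapping K for the first 2 of these, and unknown animals U29, U266 and U58 lie above most of their group.

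Other genes of sperm formation were high in the same animals. Their list was added after the values were seen, so its counts are not independent of them. Of 28 probes for germ cell genes, 19 were tested, and 14 rose and 1 fell in Holsteins against K, with a median log2 change of 3.58, where 10.9% and 9.69% of all tested probes were called. In suspected animals 7 rose and 2 fell (14.4% and 13.8% of all tested probes), and in unknown animals 5 rose (5.24%), each against K. PRM1, the protamine that packs sperm DNA, was at 1.22 to 2.59 in K, below background on all 5 arrays, and at 8.07 to 17.78 (median 14.20) in Holsteins. It was at least 2170-fold higher in Holsteins with limma adjusted p = 7.37e-07. TNP1, a transition protein that stands in between histones and protamines, ran from 4.45 to 14.51 (median 9.96) and was at least 146-fold higher (limma adjusted p = 4.33e-05).

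PRM1 was at 17.78 in C20, 17.60 in C47 and 8.07 in C44, and at 16.10 in U29, 15.50 in U266 and 15.03 in U58. The animals high for germ-line histones were thus high for the protamine as well. In the suspected group PRM1 ran from 2.82 to 9.39 and was above background on 3 of 4 arrays. TNP2, another transition protein, was at 7.89 to 8.51 there and at 2.09 to 3.65 in K, above background on 1 of 5 K arrays, and ADAM2, a sperm surface protein, was at 5.58 to 6.04 and at least 6.14-fold higher (limma adjusted p = 1.65e-06). The summed signal of the germ cell list, on the log2 scale, was 9.87 to 10.47 in K, 10.89 to 11.55 in suspected animals, 10.84 to 18.58 (median 14.57) in Holsteins and 10.10 to 16.56 (median 11.29) in unknown animals. The mean of ODF2, a sperm tail protein, was 7.58 in K and 11.73 in Holsteins, and PRM2 and SYCP1 were not above background in Holsteins. Biceps brachii has no germ cells, and the source of these signals was not tested. The muscle fibre list, checked beside them, had all 17 probes well above background in suspected, K and Holstein animals.

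Against K, the unknown animals had 2 of the 16 histone probes called, both higher (H1-12 and H1-7), where 5.24% of all tested probes were called higher and 5.19% lower. The median log2 change was 0.63 for the 16 probes, 0.32 with probes below background entered at their bounds, and 0.01 over all tested probes. Under normexp the histone median was 0.22, over all 22 histone probes. H1-12 ran from 6.43 to 8.87 (median 7.88), above every K animal, a difference of 2.41 ± 0.34 (5.31-fold, limma adjusted p = 1.6e-05). H1-7, above background on 1 of 5 K arrays, had a fitted difference of 2.98 ± 1.06 (p = 0.0443, limma), and this call was lost in 13 of the 16 alternative settings. Without K8, K10, K11 or K12 its adjusted p was 0.0869, 0.0993, 0.0889 or 0.128 by limma.

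For H2AJ the unknown mean averages the lower values of scan days 4 and 5 with the higher ones of days 6 to 9. H2AJ exceeded K by 0.90 ± 0.65 (p = 0.333, limma). H1-10, at 16.30 to 17.70 (median 16.76), lay above every K animal and was 1.21 ± 0.19 higher (limma adjusted p = 5.9e-05). The unknown minus K difference was 0.65 ± 0.24 for H2AZ1 (p = 0.0531), -1.39 ± 0.71 for H2AZ2 (p = 0.166), 0.25 ± 0.22 for H2AX (p = 0.433), -0.25 ± 0.15 for MACROH2A1 (p = 0.238) and 0.02 ± 0.21 for MACROH2A2 (limma). LOC618147 was at 10.95 to 13.28 (median 12.20) and 0.91 ± 0.34 below K, with limma adjusted p = 0.0565. H3-3A and H3-3B differed by 0.05 ± 0.24 and 0.03 ± 0.19.

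**Figure D5:**
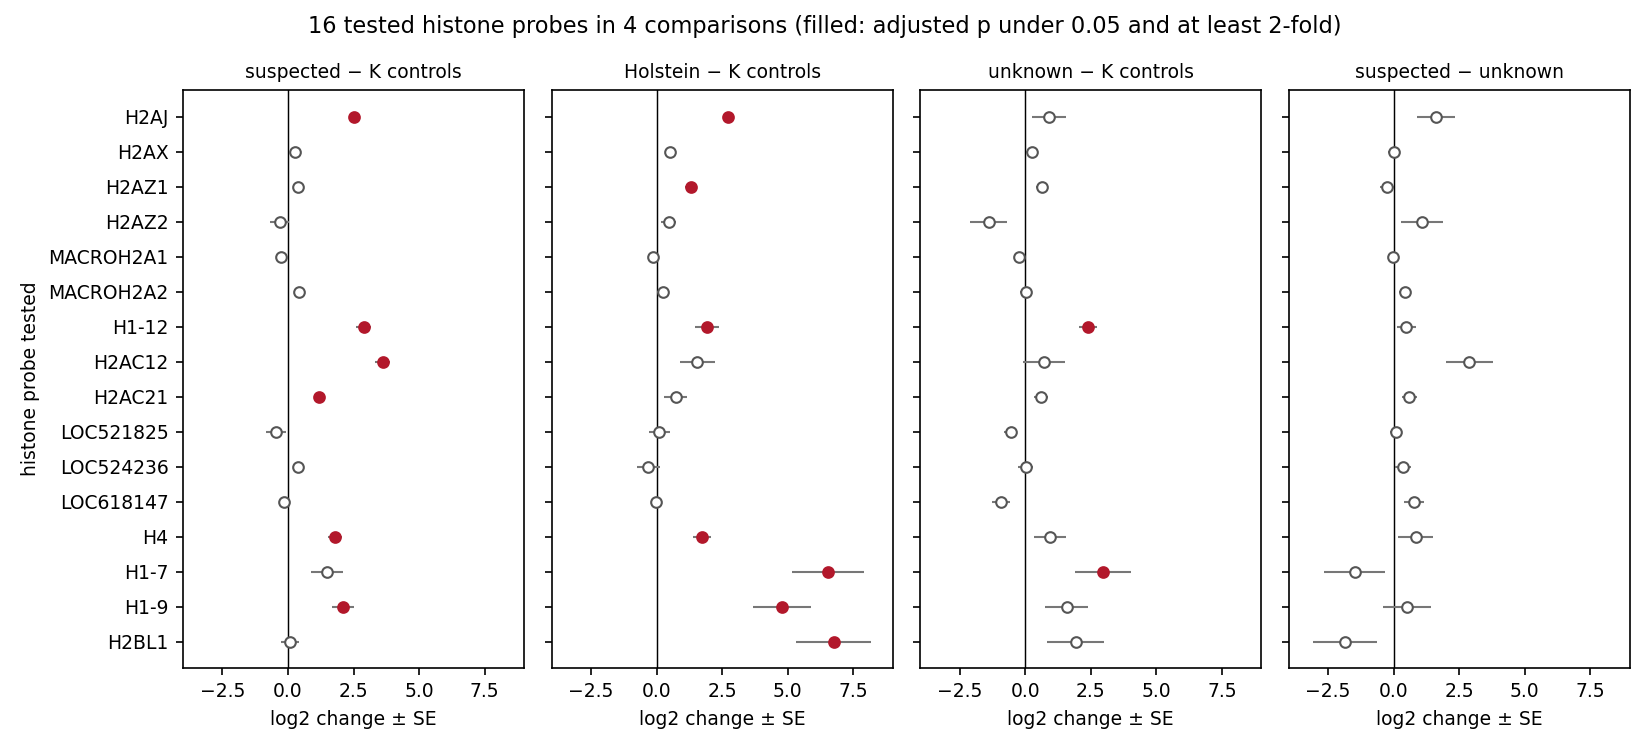
Log2 change with its SE (x axis) of the 16 tested histone probes (y axis) in each of the 4 comparisons (panels). Filled points passed the adjusted p and the 2-fold limit. Changes above 2 against K are seen for H2AJ, H1-12, H2AC12 and germ-line probes, while H2AX, MACROH2A1 and MACROH2A2 stay within 0.53 of 0 in all 4 panels.

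The second set, of 36 histone probes worded differently, had 26 tested. Of these, 9 were called higher in suspected animals, 6 in Holsteins and 3 in unknown animals, each against K, where 14.4%, 10.9% and 5.24% of all tested probes were called higher, and none was called lower. None was called between suspected and unknown animals. The median log2 changes were 0.73, 0.57, 0.39 and 0.07 in these 4 comparisons. H1-5, a canonical linker gene, was at 5.62 to 6.34 in suspected animals and at 2.34 to 2.89 in K, below background on all 5 arrays, and was at least 7.23-fold higher (limma adjusted p = 1.17e-06). H2AC8, a canonical H2A gene, was at 6.34 to 7.10 against 2.25 to 4.25 in K, above background there on 1 of 5 arrays, a fitted difference of 3.60 ± 0.37 (limma adjusted p = 3.55e-05). These are further canonical-type genes whose suspected and K ranges did not overlap.

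H2BC12, an H2B gene, was called in all 3 comparisons with K, 1.76 ± 0.34 higher in suspected animals (p = 0.00166) and 3.66 ± 0.81 higher in Holsteins (p = 0.00131, limma). It ran from 2.11 to 4.04 in K, above background on 1 of 5 arrays, and from 3.80 to 9.95 (median 6.37) in Holsteins. Of the germ-line probes in this set, H1-8, the linker histone of the egg cell, was below background in all K and suspected animals. In Holsteins it ran from 3.33 to 10.69 (median 5.53) and was at least 9.94-fold higher (limma adjusted p = 0.00173). LOC616431, an H2B of the testis, was at least 18.1-fold higher in Holsteins (limma adjusted p = 0.00433). By contrast, the H2B gene H2BC21 was at 14.64 to 14.71 in suspected animals and 14.62 to 15.25 in K, a difference of -0.13 ± 0.16.

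Other gene lists were counted in the same fits. Of all tested probes, 14.4% were called higher and 13.8% lower in suspected animals, 10.9% and 9.69% in Holsteins, and 5.24% and 5.19% in unknown animals, each against K. A list whose counts lie near these shares does not stand apart from the array. Of 13 probes for histone message processing, 11 were tested, and 2 fell in suspected animals against K. They were NPAT, the coactivator of histone gene transcription, by 1.07 on the log2 scale, and SNRPB, a core protein of spliceosomal particles, which fell by 1.03. None of the 11 was called in Holsteins or unknown animals against K, and the median changes were -0.22, -0.30 and -0.28 in the comparisons of suspected, Holstein and unknown animals with K.

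Of 26 probes for histone chaperones and exchange factors, 24 were tested. In suspected animals 3 fell against K, namely VPS72, which handles H2A.Z, by 1.48, CABIN1, of the complex that deposits H3.3, by 1.44, and CHAF1A, of the complex that deposits new H3 and H4 at replication, by 1.17. In Holsteins 2 rose and 2 fell, among them CHAF1B, a partner of CHAF1A, higher by 2.34, ANP32E, which removes H2A.Z, lower by 1.47, and VPS72 lower by 1.17. In unknown animals VPS72 fell by 1.12 and NAP1L4, an H2A and H2B chaperone, by 1.13. The medians were -0.09, 0.11 and -0.16, and the counts were close to or below the shares over all tested probes, apart from the fall in unknown animals, where 2 of 24 passed.

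Of 42 probes for DNA replication and the cell cycle, 36 were tested. In suspected animals 3 rose and 5 fell against K, near or below the shares over all tested probes, with a median of -0.35, and E2F1, a driver of S phase, and TOP2A fell by 2.44 and 2.31, each above background on 1 of 4 suspected arrays. The 2 probes for BIRC5, a factor of cell division, disagreed: 1 fell by 2.37 and the other rose by 1.99, and neither overlapped with K. In Holsteins 8 rose and none fell, with a median of 0.58. The mitotic cyclin CCNB1 was at least 7.87-fold and its kinase CDC2 at least 4.53-fold higher there. In unknown animals 5 rose and none fell, with a median of 0.22.

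Markers of cell types also differed between groups. Of 17 muscle fibre probes, 8 fell and 2 rose in suspected animals against K, with the fast myosin MYH1 lower by 7.32 and 4.25 in its 2 probes, 1 of 2 probes for the thin filament protein NEB by 4.56 (the other, at -1.45 ± 0.79, did not pass) and the troponin TNNC2 by 4.49. In Holsteins 2 of these probes rose and 1 fell, and in unknown animals 3 fell. The mean log2 signal of this list was 13.58 to 14.44 in suspected animals, 15.41 to 16.08 in K, 15.71 to 16.35 in Holsteins and 13.28 to 15.49 in unknown animals. Of 9 tested adipocyte probes, 5 rose in suspected animals, 4 in Holsteins and 4 in unknown animals, each against K, and none fell. The fatty acid carrier FABP4 was higher by 5.23, 5.03 and 4.89. Of 8 endothelial probes, 4 rose in suspected animals, 1 in unknown animals and none in Holsteins, and none fell.

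For the leukocyte list (14 tested), 2 rose and 2 fell in suspected animals, near the shares over all tested probes, 1 rose in Holsteins, and none was called in unknown animals. For fibroblasts (10 tested), 1 rose and 5 fell in suspected animals, 5 rose in Holsteins and 3 rose in unknown animals. For satellite cells and myoblasts (8 tested), 2 fell in suspected animals, and 1 rose and 3 fell in each of the Holstein and unknown groups. For erythroid genes (2 tested), 1 rose in suspected animals. The part of these markers in the histone values was not tested. None of these lists held a called probe between suspected and unknown animals.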

How the data were processed

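RNA from 1 muscle sample per animal was hybridised to 1-colour Agilent arrays. The authors deposited Feature Extraction intensity values per spot (background-subtracted processed signal, used here) and a table of linear normalized intensity values; the latter served as an alternative, and its centring is not given in the sources used here. Processed signals were taken to log2 and normalized over all 43 arrays by fast cyclic loess (limma 3.58.1 in R 4.3.3, 3 iterations). Control spots and outlier spots were left out and spots of a probe averaged. Probes under 4 on the log2 scale on at least 30 arrays were removed, leaving 16354 of 21475.

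Groups came from the labels, ages and breeds also from the study's methods. Each comparison was fitted on its own 2 groups with lmFit and eBayes, with Benjamini-Hochberg adjustment over all tested probes, and this was checked on simulated data. Each sample is a separate animal. The number of arrays limits the precision. Current symbols came from RefSeq for 19 of the 22 probes, and the array's own names were kept otherwise. Replacement histones were named whatever their result, apart from an item not reported here; of other histone probes, up to 8 called in each direction, and of other lists up to 3 called, by size of change. A few further probes were named after their values were seen. Histone family members are similar in sequence, so signal of near copies may be shared between probes. The members and gene lists were chosen with earlier results of these data known, and the germ cell list was added after the values were seen, so its counts are not independent of them. Alternatives were other normalizations, background correction, filters, fits, slide and scan day as blocks, and left-out animals.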

Additional observations from a re-analysis of the deposited data

Results flagged for a closer look

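Among 40 probe and group pairs tested (the suspected group of 4 animals and the K group of 5), 1 held an animal far from the rest of its group. The unknown and Holstein groups were not screened in this way. H2AX in the suspected group was at 9.21 in animal S21, while the other suspected animals lay between 9.41 and 9.43. Chance flags about 1 in 20 groups.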

How the results depend on the processing

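The number of histone probes called between suspected and K animals was 6, rose to 10 (8 higher, 2 lower) with no dim filter, and was 5 to 7 in the other settings (6 to 7 with 1 animal left out). Cyclic loess on every pair of arrays called 5 higher and 2 lower. H1-10 passed in this comparison under quantile normalization (1.01), 75th percentile scaling (1.35), normexp (1.33) and without K11 (1.06). Over all 19 alternatives its log2 change ran from 0.16 to 1.35, with limma adjusted p up to 0.6. For Holsteins against K the count was 6 to 8, and 7 with any K animal left out. For unknown animals against K it fell from 2 to 1 under quantile normalization, 75th percentile scaling, pairwise cyclic loess, no dim filter, the filter on background, a common fit, slide or scan day as a random block, and without U50 and U79 (chosen after seeing the data); with 1 K animal left out it was 1 to 2, and under normexp it was 3 of 22. The call lost was H1-7 throughout. Between suspected and unknown animals 0 became 2 with no dim filter and 2 with the filter on background (H2BC3, then tested, and H2AC12, p = 0.0478 and p = 0.0474), and 1 in a common fit (H2AC12 p = 0.0316), and stayed 0 with 1 suspected animal left out. None of the named histone probes called in a comparison changed direction in any setting. Apart from the filters, which change how many probes are tested, the cause was not tested.

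Scaling moved the split of all calls between suspected and K animals from 2347 higher and 2250 lower to 1987 and 3097 (quantile), 3200 and 1425 (75th percentile) and 2117 and 4199 (pairwise loess), with medians over all probes of -0.13, 0.11 and -0.25. Normexp, which keeps all 21475 probes, gave 824 and 554; it gave 786 and 564 for Holsteins and 389 and 415 for unknown animals against K. For Holsteins, 75th percentile scaling gave 1299 higher and 2422 lower against 1777 and 1584, and for unknown animals pairwise loess gave 658 and 1030 against 857 and 849. Over all probes, 8 calls between suspected and unknown animals became 1390 with no dim filter, 1317 with the filter on background, 1053 in a common fit and 0 with slide as a fixed block. The labels tie no animal of a group to an animal of another group, so animals were not paired. Suspected and unknown animals were matched by slide only, in the fits with slide as a block. Signal over background limits several canonical-type and germ-line probes. Of the tested ones in the set, H2AC12, H4 and H2BL1 were below background on every K array, and H1-7 was above it on 1 of 5. Low signal also limits the differences of H2AZ2 that involve unknown animals, where 9 of 21 arrays were well above background.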
